A study of Paxillus involutus with 12 samples.

Results

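A set of 146 of the 12214 array sequences of the ectomycorrhizal basidiomycete Paxillus involutus kept a nearly level signal through days 2, 6 and 8 of carbon starvation and had a lower signal at day 13. Its members were chosen by their day means, which are averages of the log2 expression values of 3 arrays per day. The means of days 2, 6 and 8 had to lie within less than 0.4 of each other, and the day 13 mean had to lie at least 0.8, or 1.74-fold, below the lowest of them. The same 12 arrays that chose the members supply the values below, so the profile of the members is a description and was not tested. All 4 groups were mycelium of strain ATCC 200175, grown without a plant host in dishes of glass beads. The minimal medium held ammonium to give a C/N ratio of 3, and the mycelium had been pre-grown and then kept without nitrogen for a day. They differed in harvest time, at days 2, 6, 8 and 13, with 3 arrays per day, each from a separate replicate of 2 pooled cultures, all on 1 chip. The samples hold no cultures of matching age with carbon supplied, so starvation and culture age cannot be told apart, and the 3 arrays of day 13 occupy array positions 10 to 12, so day and position on the chip cannot be told apart either.

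Ectomycorrhizal fungi live on sugars supplied by tree roots and pass mineral nutrients to the tree. When carbon runs out, fungal mycelium draws on its own material: autophagy carries cytoplasm and organelles to the vacuole, where they are degraded and their nutrients released. The level of a messenger RNA reflects both its synthesis and its decay, and each value here is relative to the rest of its array. In mycelium harvested whole, fewer cells that express a sequence and less of its RNA per cell cannot be told apart.

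The sequences carry numbers only. The gene information field was empty on every array, and 0 of the 12214 identifiers matched any of the 18033 genes listed in the reference table (assembly GCA_000827475.1), so no member is given a gene name, a role or a printed sequence, and the presence of mycelial marker genes was not checked. Every member was summarised from 10 probe pairs, as were 12203 of all sequences. Median log2 values per array ran from 11.35 to 11.38. The random-sequence control, the measure of background, ran from 4.49 to 4.70. Samples titled day 6 and day 8 carry conflicting position numbers in their descriptions. The rule treats days 2, 6 and 8 alike, so an exchange of days 6 and 8 leaves the same 146 members. Statements on day 6 or day 8 alone, and on the order of the early days, follow the sample titles and would change with such an exchange.

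A flat start was common on the array. The means of days 2, 6 and 8 lay within 0.4 for 6137 sequences (50.2%), and 146 of these (2.38%) lay at least 0.8 below all of them at day 13. A larger group, 325 of the 6077 sequences with a wider early range (5.35%), reached the same distance below every earlier mean after days that already differed. The members were therefore 31% of the 471 sequences that were at least 0.8 below each earlier day at day 13. Flat sequences that moved the other way, at least 0.8 above every earlier mean, numbered 196 (3.19% of the flat sequences).

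**Figure D1:**
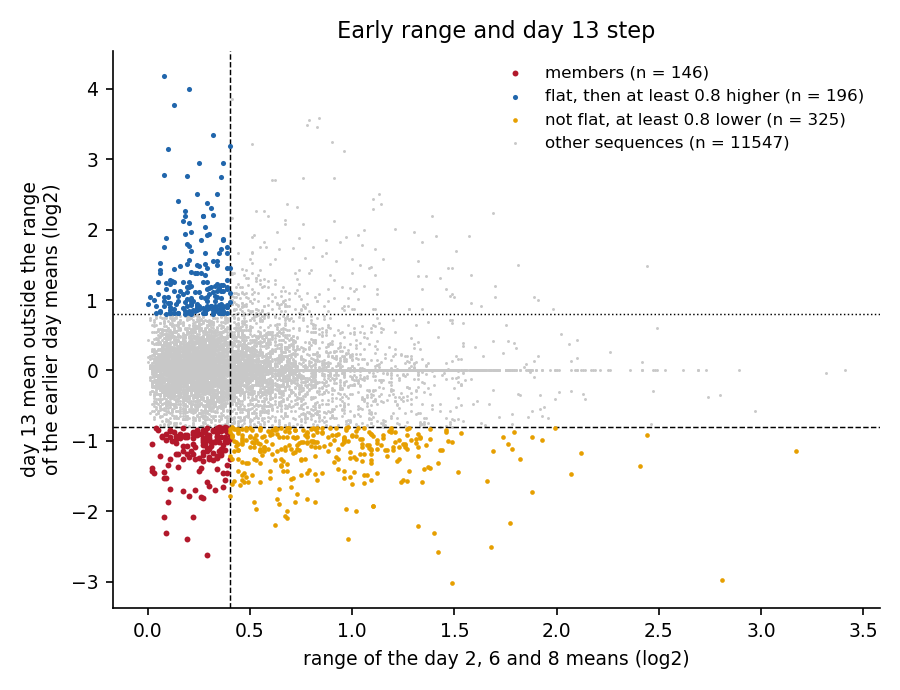
Each point is 1 of 12214 sequences. The horizontal axis gives the range of the day 2, 6 and 8 means and the vertical axis how far the day 13 mean lies above or below that range, both in log2 units, with 0 where it lies inside. Dashed and dotted lines mark the limits of 0.4 and 0.8. The 146 members reach down to -2.62, while the 196 flat sequences that were higher at day 13 reach 4.18.

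The typical member lay not far past the limit. The distance of the day 13 mean from the lowest earlier mean had a median of -1.02, with quartiles of -1.26 and -0.91, so the median member was 2.03-fold lower at day 13 than on its lowest earlier day. Of the 146 members, 79 were at least 2-fold lower, 19 at least 2.83-fold and 5 at least 4-fold, and the largest loss was 6.16-fold. Over all 12214 sequences the same distance had a median of 0.20, and over the flat sequences 0.14. The flat sequences that were higher at day 13 had a similar median size of 2.12-fold above their highest earlier mean but a longer tail, with 24 at least 4-fold, 6 at least 8-fold and the highest at 18.1-fold.

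All 146 members were called lower at day 13 than the mean of days 2, 6 and 8 in a linear model over the 12 arrays (limma, adjusted p under 0.05), where 31% of all sequences were called lower. They were also all called lower at day 13 than at day 8, at day 6 and at day 2, beside 28.3%, 28.9% and 31.4% of all sequences. The rule used these contrasts, so nothing is read from the counts. The median log2 differences of the members were -1.12 against day 8, -1.21 against day 6 and -1.26 against day 2. In 145 of the 146 members all 3 day 13 arrays lay below all 9 earlier arrays, as they did in 17.3% of all sequences, and again the choice of members makes this likely. The exception was paxillus_11506, singled out after its values were seen.

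**Figure D2:**
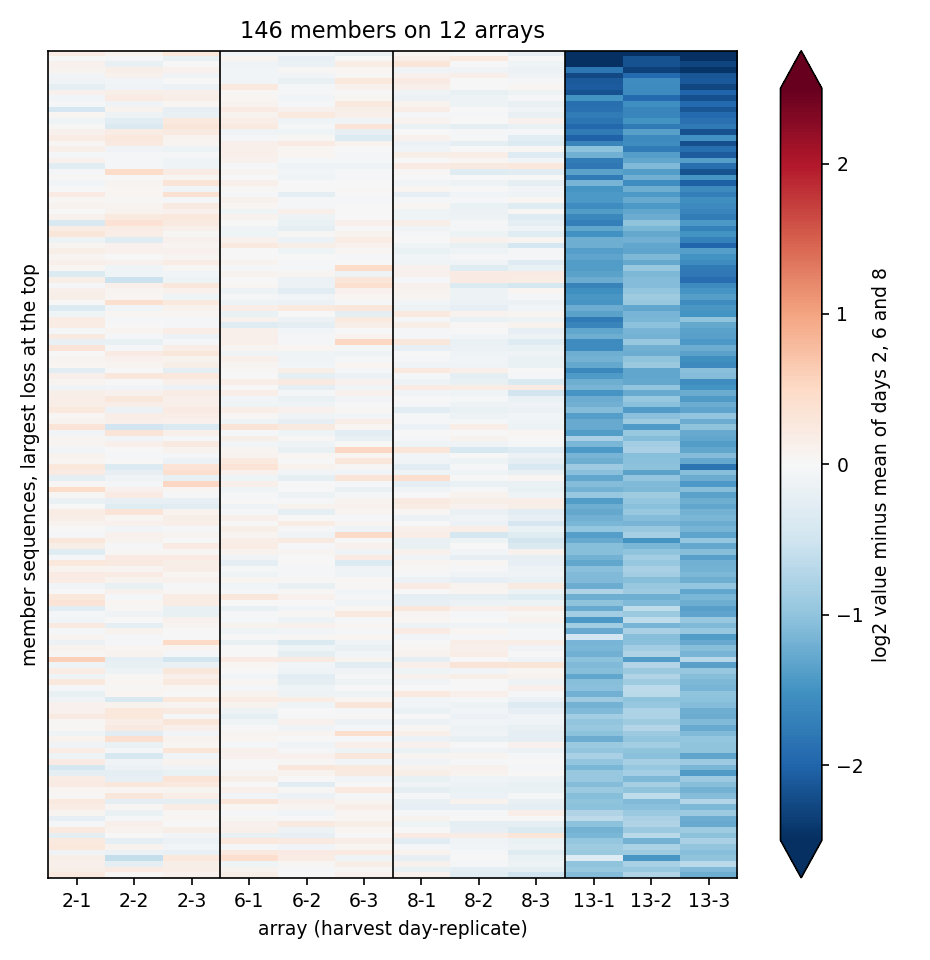
Each row is 1 of the 146 members, ordered by its loss with the largest at the top, and each column 1 of the 12 arrays, named by harvest day and replicate. Colour gives the log2 value minus the member's mean over days 2, 6 and 8. Of the 1314 values on the 9 earlier arrays, 93.6% lie within 0.3 of 0, with a largest deviation of 0.59. The values on the 3 day 13 arrays run from -2.93 to -0.33, and array 2 holds the highest of the 3 in 96 members.

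The largest loss was that of paxillus_4101. On the log2 scale it read 13.24, 13.14 and 13.33 at day 2, 12.98, 12.98 and 12.87 at day 6, 13.10, 13.05 and 12.86 at day 8, and 10.51, 10.31 and 10.13 at day 13. All 9 earlier arrays lay within the limits of the rule by day mean, but day 6 was called lower than day 2, with a log2 difference of -0.29 ± 0.10 (standard error). The 3 day 13 arrays lay far below all 9 earlier arrays, without overlap. Its day 13 mean of 10.32 ± 0.19 (SD, n = 3) was 6.16-fold lower than the lowest earlier mean, 12.94 ± 0.06 at day 6, and its log2 difference from the mean of the earlier days was -2.74 ± 0.08 (standard error). In rank of signal it stood at percentile 28.5 of all sequences at day 13, against percentile 88.1 over the earlier days.

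Next came paxillus_5670, 5.25-fold lower, with 13.12, 13.06 and 12.92 at day 2, 13.17, 12.89 and 13.12 at day 6, 13.23, 13.34 and 13.09 at day 8, and 10.55, 10.92 and 10.45 at day 13. Its mean was highest at day 8, 13.22 ± 0.13, the last harvest before the loss. The third, paxillus_1663, was 4.98-fold lower, with 12.30, 11.99 and 12.20 at day 2, 12.09, 12.02 and 12.36 at day 6, 12.48, 12.18 and 12.07 at day 8, and 9.62, 10.01 and 9.89 at day 13. In both, every day 13 array lay well below every earlier array.

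The fourth, paxillus_12937, came from near the top of the signal range. It read 15.26, 15.32 and 15.27 at day 2, 15.10, 15.19 and 15.22 at day 6, 15.08, 15.08 and 15.02 at day 8, and 13.37, 12.84 and 12.71 at day 13, 4.24-fold lower. Here the earlier arrays differed from each other by little and the day 13 arrays spread more widely, with an SD of 0.35. paxillus_11199 was 4.22-fold lower, with 11.90, 12.07 and 11.87 at day 2, 11.89, 11.90 and 11.99 at day 6, 12.06, 12.08 and 11.88 at day 8, and 9.71, 10.01 and 9.83 at day 13. paxillus_9526 was 3.65-fold lower, with 12.41, 12.42 and 12.51 at day 2, 12.42, 12.30 and 12.75 at day 6, 12.70, 12.49 and 12.44 at day 8, and 10.39, 10.95 and 10.39 at day 13. In these last 2 members, as in paxillus_5670 and paxillus_1663, array 2 of day 13 was the highest of the 3. In paxillus_4101 and paxillus_12937 it was array 1.

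**Figure D3:**
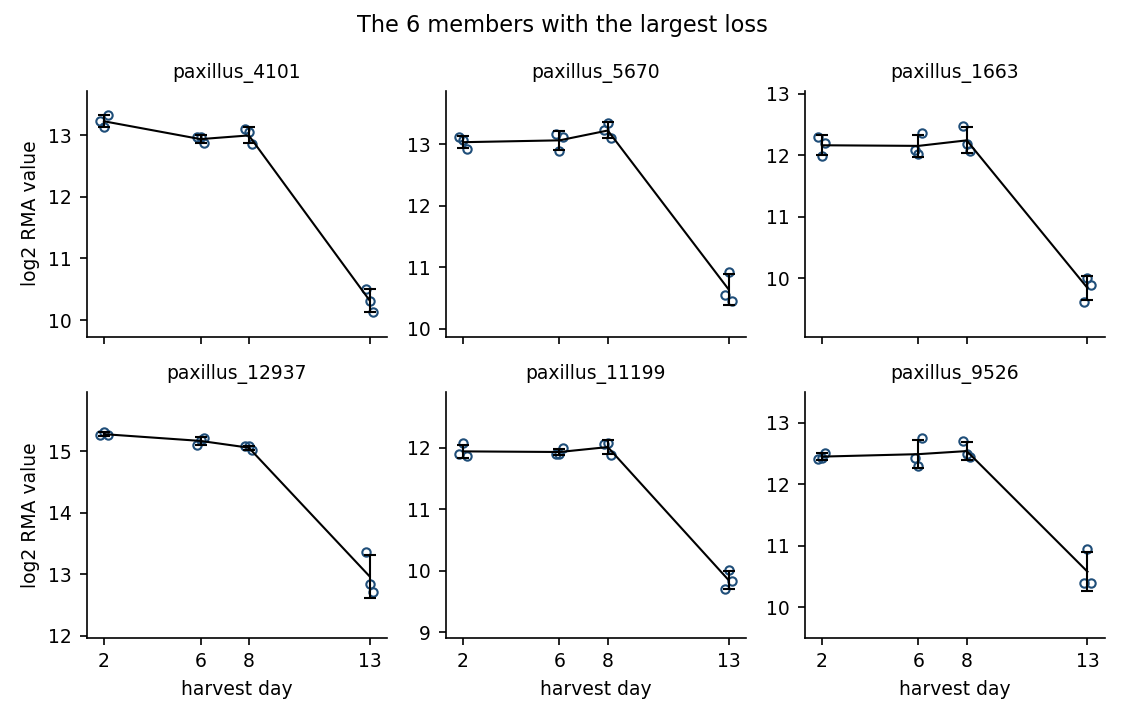
The 6 members with the largest loss, with harvest day on the horizontal axis and the log2 RMA value on the vertical axis, which spans 4 log2 units in each panel. Open circles are single arrays, and the line joins day means with bars of 1 SD (n = 3). In each panel the means of days 2, 6 and 8 form a shelf, and the day 13 mean lies 3.65-fold to 6.16-fold below its lowest day.

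By array signal the members started high, and their median ended below the middle of the array. Their median percentile among all sequences was 41.5 at day 13, against 72.4 over days 2, 6 and 8. The rule requires a lower day 13 mean, so the direction of this fall was largely fixed by the choice. For all flat sequences the median percentile was 53.5 at day 13, against 53.2 before. For the 325 sequences equally low at day 13 without a flat start it was 23.1, against 58.8 before. In the strongest 25% of signals there were 31 members (21.2%) at day 13, against 70 (47.9%) over the earlier days. In the weakest 25% there were 39 (26.7%) at day 13, against 15 (10.3%) over the earlier days. Signals of different sequences also depend on their probes, so these ranks order array signals and not amounts of RNA. Across the 146 members, the size of the loss and the earlier level were weakly related (Pearson's r = 0.21, Spearman's rho = 0.24, as a description over sequences that share the same arrays).

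The rule likewise makes a fall out of the strongest signals likely. Among the 200 strongest of the 12214 signals over days 2, 6 and 8 there were 17 members. How many of all 200 stayed among the strongest at day 13 was not counted, and of the 17 members 1 did. That member was paxillus_16, rank 2 over the earlier days and rank 98 at day 13. It read 15.53, 15.43 and 15.46 at day 2, 15.45, 15.49 and 15.50 at day 6, 15.38, 15.42 and 15.42 at day 8, and 14.97, 14.39 and 14.06 at day 13. The earlier arrays were almost level and the day 13 arrays were spread widely, with array 1 nearest to the earlier level. The highest value of any sequence on any array was 15.57, so the earlier values of paxillus_16 and of paxillus_12937 lay near the top of the measured range. Whether the signal was saturated there was not tested, and neither the level start nor the fold of these members is given as exact. For the 17 members together, the loss ran from 0.93 to 2.08 with a median of 1.26, and the other members of this group held day 13 ranks between 966 and 2615. Of the flat sequences that were higher at day 13, 12 were among the 200 strongest at day 13 and 1 over the earlier days.

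**Figure D4:**
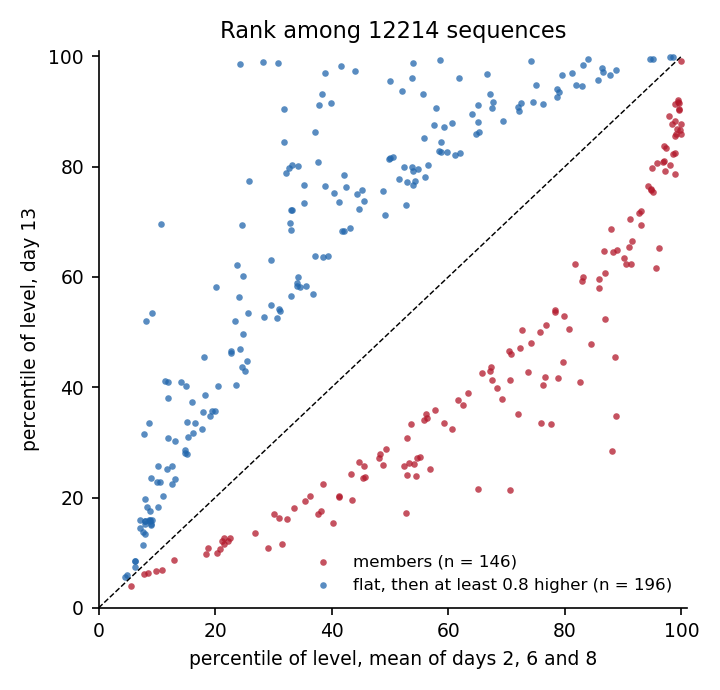
Percentile of the array signal among 12214 sequences at day 13 (vertical axis) against the percentile of the mean of days 2, 6 and 8 (horizontal axis). Red points are the 146 members, blue points the 196 flat sequences that were higher at day 13, and the dashed line marks equal rank. Members lie below the line, which the rule makes likely, and their median is at percentile 41.5 at day 13, against 72.4 before.

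The signal of the members was reduced at day 13 but not gone, and most sequences of the array likewise lay above background. All but 1 of the 146 members were at least 2-fold above the random-sequence control on every array, as were 94.4% of all sequences, and 0 members were at or below it on any array. At day 13, 141 members were still at least 8-fold above the control on all 3 arrays. The share of all sequences at this limit was not taken, so this count is given without a reading. The day 13 means of all sequences had a lower quartile of 10.10, also far above the control. The dimmest member was paxillus_12484, with 5.54, 5.83 and 5.89 at day 2, 5.97, 6.26 and 6.22 at day 6, 6.07, 6.08 and 5.94 at day 8, and 4.84, 5.02 and 4.83 at day 13. Its day 13 mean was 1.23-fold above the control and 1.82-fold below its lowest earlier mean. paxillus_11038, the next dimmest, read 8.22, 7.60 and 8.28 at day 2, 8.29, 8.04 and 7.98 at day 6, 7.66, 7.92 and 7.56 at day 8, and 7.03, 6.93 and 6.12 at day 13. Its day 13 arrays lay below all earlier ones, with array 3 far below the other two and an SD of 0.50.

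Within the limit of 0.4 the early days were not equally level in all members. For 93 members (63.7%) none of the 3 comparisons among days 2, 6 and 8 passed the limma threshold, beside 3679 of the 6137 flat sequences (59.9%), and a comparison that misses the threshold does not show equal levels. Their losses ran from 0.80 to 2.39 with a median of 1.07. In 17 members the early means lay within 0.1 of each other. The most level was paxillus_9512, with 12.44, 12.48 and 12.37 at day 2, 12.47, 12.43 and 12.47 at day 6, 12.49, 12.44 and 12.37 at day 8, and 10.97, 11.21 and 10.85 at day 13. Its early means differed by 0.02 and its day 13 mean was 2.67-fold lower, with no array of day 13 near the others. paxillus_10105 was as level, with early means of 13.53, 13.53 and 13.55 and a day 13 mean of 12.47 ± 0.24, 2.08-fold lower.

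In some members day 8 was called slightly different from day 2. The comparison of day 8 with day 2 was called lower in 36 members (24.7%), beside 28.5% of all sequences and 13.8% of the flat sequences, and called higher in 7 (4.79%), beside 30.9% and 16.3%. The rule caps these differences at 0.4 and needs a day 8 mean well above day 13, so the shares are given without a reading. The loss of the 36 had a median of 0.99 and reached 1.56, and that of the 7 had a median of 0.96 and reached 1.12. paxillus_13590 belonged to the 36, with 14.77, 14.74 and 14.73 at day 2, 14.63, 14.52 and 14.65 at day 6, 14.46, 14.52 and 14.59 at day 8, and 13.24, 13.30 and 13.25 at day 13. Its early means were 14.75, 14.60 and 14.52, its day 13 mean was 2.39-fold below the last of them, and its day 13 arrays were nearly equal. paxillus_4929, also of the 36, had the closest day 13 arrays of all members, 11.54, 11.52 and 11.51, and means of 12.67 ± 0.18, 12.51 ± 0.13 and 12.39 ± 0.04 (SD, n = 3) on the earlier days in order.

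The lowest of the 3 early means was that of day 8 in 79 members (54.1%), of day 2 in 36 (24.7%) and of day 6 in 31 (21.2%). Among all flat sequences the shares were 31.2% for day 8, 37.1% for day 2 and 31.8% for day 6. The 3 early means ran downward in order of time in 52 members and upward in 21. In the 325 sequences that were equally low at day 13 without a flat start, the corresponding numbers were 223 and 14, and 266 had their lowest early mean at day 8. Both sets were chosen on these same means, and no share over all sequences was taken for the downward and upward orders. These counts are therefore given without a reading. Between day 6 and day 2, 11 members were called lower and 6 higher, beside 23.1% and 23% of all sequences. Between day 8 and day 6, 12 were called lower and 1 higher, beside 11.6% and 14.3%.

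The spread between arrays of a day was not used by the rule. The members had median SDs of 0.106, 0.0996, 0.0738 and 0.207 at days 2, 6, 8 and 13, where all sequences had 0.129, 0.0790, 0.0771 and 0.139. The 325 sequences equally low at day 13 after an uneven start had a day 13 median of 0.201, so the wider day 13 spread was not particular to the members. In 119 members (81.5%) the SD was larger at day 13 than at day 8, beside 75.6% of all sequences. The widest day 13 spread was that of paxillus_11506, with 9.24, 8.49 and 9.36 at day 2, 9.51, 9.28 and 8.98 at day 6, 8.88, 9.10 and 8.92 at day 8, and 8.76, 7.64 and 8.08 at day 13. Its first day 13 array lay above its second day 2 array, the 1 overlap in the set.

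In part the day 13 scatter ran the same way across members, and how large a part was not measured. Array 2 of day 13 had the highest of the 3 values in 96 members (65.8%) and array 3 the lowest in 86 (58.9%), beside 40% and 34.1% of all sequences. The median deviation of the members from their own day 13 mean was -0.030 on array 1, 0.146 on array 2 and -0.110 on array 3, where the medians over all sequences were -0.001, 0.022 and -0.004. Measured from the lowest earlier mean, the median member stood at -1.09 on array 1, -0.92 on array 2 and -1.15 on array 3. The limit of 0.8 was met on array 1 by 131 members, on array 2 by 106 and on array 3 by 138. On no array of days 2, 6 or 8 did the median deviation of the members exceed 0.045 in size. What sets array 2 of day 13 apart was not tested.

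The 325 sequences that were as low at day 13 after an uneven start had median deviations of -0.062, 0.124 and -0.041 on the 3 day 13 arrays, again highest on array 2. The flat sequences that were higher at day 13 had -0.046, -0.005 and 0.069, highest on array 3. By these medians the losses were smallest on array 2 and the gains smallest on array 1, though for the gains arrays 1 and 2 differed little. What lies behind these orders was not tested. All 3 sets were chosen on day means, to which each array contributes equally. Across the 146 members, the difference between arrays 2 and 3 of day 13 went weakly with the size of the loss (Pearson's r = 0.23, Spearman's rho = 0.29, as a description).

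**Figure D5:**
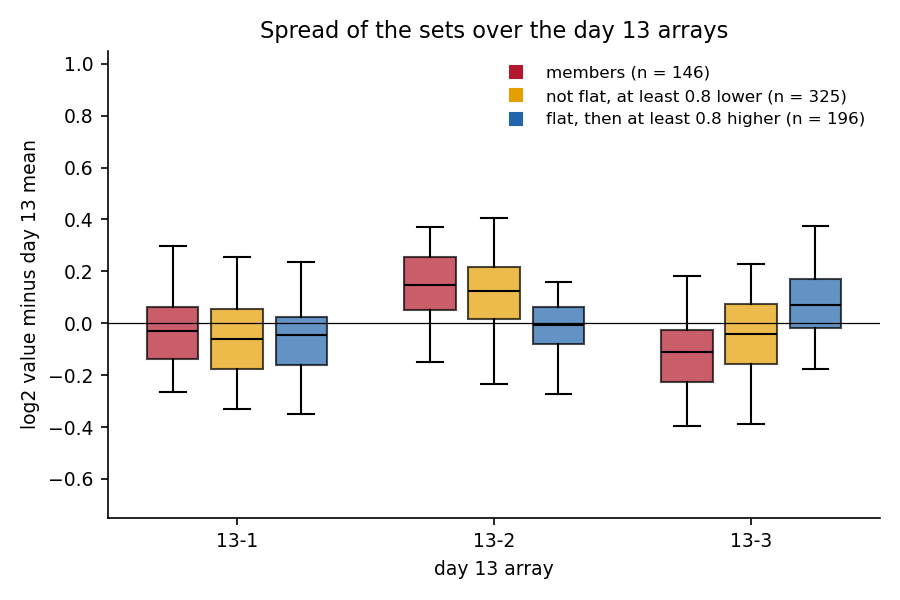
Deviation of each sequence from its own day 13 mean (vertical axis, log2) on the 3 day 13 arrays (horizontal axis), for the 146 members, the 325 sequences equally low without a flat start and the 196 flat sequences that were higher at day 13. Boxes span the quartiles with the median as a line, and whiskers reach the percentiles 5 and 95. The members' median is 0.146 on array 2 and -0.110 on array 3.

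Since the choice and the values share arrays, the rule was also applied to 2 replicate numbers of every day and the chosen sequences were read on the 4 arrays left out. The arrays left out share the RMA normalization with the others, and the limits had been set with all 12 arrays in view, so these values describe how the arrays compare and are not independent evidence of the loss. Without replicate 1, 133 sequences were chosen, and on the arrays of replicate 1 day 13 lay below all 3 earlier days in 132 of them, with a median distance of -1.03 from the lowest earlier day. Without replicate 2, 163 were chosen, 162 lay below, and the median distance was -0.76. Without replicate 3, 156 were chosen, all 156 lay below, and the median was -1.05. The distance on the arrays that chose them, read from means of 2 arrays a day, was -1.03, -1.05 and -1.02. The arrays left out give 1 value a day, so the 2 sets of distances are not measured alike and their sizes are not compared. Array 2 of day 13, on which the members stood higher, is among the choosing arrays for replicates 1 and 3 and is left out for replicate 2. Over all sequences, 32.4%, 29.1% and 33.1% lay below all earlier days on these arrays, with medians of 0.21, 0.24 and 0.22.

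A loss of at least 0.8 was met on the arrays left out by 72.2% of the chosen sequences for replicate 1, 42.3% for replicate 2 and 78.2% for replicate 3, beside 5.08%, 3.23% and 3.94% of all sequences. The flat start, read from 1 array a day, was met by 87 of 133, 107 of 163 and 76 of 156, or 65.4%, 65.6% and 48.7%, beside 49.1%, 43.3% and 45.5% of all sequences. For replicate 3 the share was thus near that of the array. Both limits together were met by 70, 53 and 70 of the chosen sequences, beside 1.64%, 0.982% and 1.4% of all sequences. With 1 array per day no test is possible on these values. Of the chosen sequences, 103, 117 and 121 were also among the 146 members.

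Sequence numbers gave a further property that the rule did not use. Among the members were 6 pairs of consecutive numbers and no longer run, holding 12 of the 146. In 4 of them the 2 members ran together on the 12 arrays at r = 0.99, and in paxillus_3501 and paxillus_3502 at r = 0.98, where the median over the 11427 consecutive pairs of the array was 0.16. These values were chosen with the profiles, since any 2 members share the day 13 step, and members that are not neighbours were not compared. How many such pairs another set of this size would hold was not counted, so the number of pairs is given without a reading.

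The closest pair was paxillus_5193 and paxillus_5194. paxillus_5193 read 11.12, 11.19 and 11.27 at day 2, 11.24, 10.99 and 11.70 at day 6, 11.48, 10.77 and 10.85 at day 8, and 9.75, 10.36 and 9.89 at day 13. paxillus_5194 read 11.14, 11.29 and 11.25 at day 2, 11.25, 11.10 and 11.67 at day 6, 11.35, 10.76 and 10.88 at day 8, and 9.81, 10.36 and 9.88 at day 13. They differed by no more than 0.13 on any array and shared a high value on array 3 of day 6, so they are not counted as independent observations. The other pairs with r = 0.99 were paxillus_325 with paxillus_326, paxillus_4153 with paxillus_4154, and paxillus_6152 with paxillus_6153, with losses of 1.39 and 1.11, of 1.28 and 1.08, and of 1.13 and 0.99.

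The sixth pair differed. paxillus_4102 stood next to paxillus_4101, the member with the largest loss, but read 11.77, 10.94 and 10.72 at day 2, 11.39, 11.40 and 11.26 at day 6, 10.93, 11.17 and 11.09 at day 8, and 10.16, 9.79 and 10.48 at day 13. Its loss was 0.92, against 2.62 in its neighbour, and its arrays of day 2 were widely spread, with an SD of 0.56. The 2 sequences were correlated at r = 0.81. The other neighbours by number, 265 sequences outside the set, had a median distance from the lowest earlier mean of 0.17, close to the 0.20 of all sequences. The quartiles were -0.16 and 0.49. Of these neighbours, 13 lay at least 0.8 below every earlier mean, beside 471 of all 12214 sequences. Counting each run once leaves 140 members.

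Outside the set, the sequences whose values most resembled paxillus_4101 over the 12 arrays were paxillus_9024 (r = 0.99), paxillus_8287 (r = 0.99) and paxillus_1772 (r = 0.98). Their losses were smaller, 0.75, 0.75 and 0.36. paxillus_9024 read 11.89, 11.90 and 11.92 at day 2, 11.74, 11.74 and 11.81 at day 6, 11.83, 11.79 and 11.86 at day 8, and 11.13, 11.07 and 10.85 at day 13. It had the same shape on a smaller scale, with its lowest day 13 value also on array 3. A high correlation here mostly reflects the single step shared at day 13.

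The limits of the rule cut through a continuous range of values. In the set, 31 members had a loss under 0.9, and 51 flat sequences outside it had a loss between 0.7 and 0.8. Just inside were paxillus_8278, paxillus_6451 and paxillus_584, with losses of 0.8001, 0.8008 and 0.80507. Just outside were paxillus_8657, paxillus_7517 and paxillus_1945, with losses of 0.79997, 0.79537 and 0.79497. For the limit on the early range, paxillus_3887 and paxillus_6405 were just inside with 0.3977 and 0.3969, and paxillus_5649 and paxillus_222 just outside with 0.4004 and 0.4028. The last of these lay 2.31-fold below its lowest earlier mean at day 13, more than the median member. Neighbours across either limit differed by far less than the SD between arrays.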

How the data were processed

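Expression was measured on 12 subarrays of a 1-colour (Cy3) NimbleGen chip, 3 per harvest day. The deposited log2 values come from RMA, run by the authors on whole arrays, per the submitters' processing notes and the file headers. That they are log2 follows from their range, 2.81 to 15.57. RMA corrects background, gives all arrays a common distribution and summarises probes, so a change in total messenger RNA is not visible. The RMA version is not given in the sources used here. Probe pairs per sequence, also deposited, were used as given. The series-wide value table held identical values (largest difference 0).

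Days and replicates were taken from the sample titles. The members, lists and tests were chosen with earlier results of these data known. Sequences were named by rank rules on loss, level, spread and consecutive number (all 6 pairs, since they tied), and on distance from the limits. No filter on dim sequences was applied. Differences, standard errors and calls came from 1 limma 3.58.1 fit (R 4.3.3, lmFit, contrasts.fit, eBayes) with a mean per day over 12 arrays, 8 residual and 4.23 prior degrees of freedom, adjusted by Benjamini-Hochberg over 12214 sequences. Percentiles are ranks of day means. Gene lists fixed for autophagy, nitrogen use, glycolysis, ribosome, proteases, carbohydrate-active enzymes and hydrophobins matched 0 sequences and were not used. Alternatives were other normalizations, a filter on dim sequences, day medians, other limits, array weights, moderated settings, stricter thresholds, a replicate block and leaving out arrays. The number of arrays limits the precision.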

Additional observations from a re-analysis of the deposited data

How the results depend on the processing

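The limits of the rule moved the size of the set most. An early range below 0.3 left 91 members and a loss of at least 1 left 79, while a loss of at least 0.6 gave 278. A test against a minimum fold of 1.5 (limma treat) called 855 sequences lower at day 13 than the mean of the earlier days, against 3785, and 143 of the 146 members. Leaving out 1 array gave 131 to 173 members, a median distance from the lowest earlier mean of -1.11 to -0.98, 3430 to 3872 sequences called lower and 146 members called lower. Leaving out a replicate number of every day gave 133 to 163 members. Without array 2 of day 13 there were 170 members, 141 of them shared with the 146, and the median distance was -1.11. Without array 3 of day 8 there were 173, holding all 146. Under quantile normalization 132 of 143 were shared, and under median centring 141 of 145. With the replicate number as a block the 146 members and -1.02 stayed by construction, and the block gave 3764 sequences and 146 members called lower. Same-numbered arrays of different days deviated together at r = -0.30 to 0.63 over all sequences, with 5 of 18 pairs over 0.1. Differently numbered arrays were not compared, so whether the numbers pair the samples was not tested. The other alternatives kept counts within 1.5 times. The dim filter removed no member. Named losses under 0.9 are near the limit, and paxillus_12484 is near background.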
